A study of Mus musculus with 20 samples.

Results

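Red blood cells leave a trace of globin RNA in any tissue that was not fully drained of blood, while heart muscle makes its own heme for myoglobin and for the cytochromes of its mitochondria. The genes described here sit on both sides of that line. They are the adult globins Hbb-bs, Hbb-bt, Hba-a1 and Hba-a2, the first and last enzymes of heme synthesis (Alas2, Alas1 and Fech), the transferrin receptor gene Tfrc and the mitochondrial iron importer gene Slc25a37 (mitoferrin 1). They were named as a list of 9 genes and matched by gene symbol, and all 9 had a row in both deposited tables, of 19105 genes with a row in both.

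Left ventricle of Mus musculus was sequenced as bulk total RNA in 20 libraries of 4 groups, 5 libraries each: dnOGAh-Tg after 2 weeks and after 24 weeks of induction, and Control at the same times. In dnOGAh-Tg mice a dominant negative form of OGA, the enzyme that removes the sugar O-GlcNAc from proteins, is induced in the heart with doxycycline in the food. The labels do not give the promoter that drives the transgene, the strain, age or sex of the mice, the genotype of Control mice or whether those mice ate the doxycycline food. Whether every library comes from its own mouse is not said either, and the tests therefore rest on the variation among libraries, which may be technical. Library titles carry a code from F11 to F25 whose meaning is not stated. At 24 weeks each code names 1 dnOGAh-Tg and 1 Control library, and at 2 weeks the codes are F11, F13 and F14.

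The libraries held between 22804712 and 50996272 recovered reads. Oga, the check of the transgene, was 6.90 to 17.9 times the Control mean in the 5 dnOGAh-Tg libraries at 24 weeks. At 2 weeks it was 1.81 and 2.43 times the Control mean in the 2 F11 dnOGAh-Tg libraries, against 11.9 to 17.2 times in the other 3, so log2 changes at 2 weeks are also given without those 2 libraries. Muscle markers were abundant at both times, and at 24 weeks the 10 cardiomyocyte marker genes summed to 1459541 to 1859239 normalized counts in dnOGAh-Tg libraries, against 2210031 to 2643727 in Control libraries.

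Heme is built in a chain of enzyme steps shared between mitochondrion and cytosol. The first step, the joining of glycine and succinyl-CoA by 5-aminolevulinate synthase, limits the rate of the pathway and exists as 2 genes: Alas1 in most tissues and Alas2 in developing red cells. Ferrochelatase, encoded by Fech, inserts iron at the last step, and iron reaches it through the transferrin receptor at the cell surface and mitoferrins in the inner mitochondrial membrane. In red cell precursors the factor GATA1 drives the globin genes and Alas2 together.

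The promoters of the genes on which the results turn are printed here to show where the letters GATAA do and do not occur. Each is the 250 bases before the transcription start, taken from RefSeq on GRCm38.p6, 5′ to 3′ on the gene's strand, and capitals mark the letters GATAA or their reverse complement TTATC, the core of a GATA site. They lie at chr7:103827929-103828178 on the minus strand for Hbb-bs, chr11:32283422-32283671 on the plus strand for Hba-a1, chrX:150547167-150547416 on the plus strand for Alas2, and chr9:106247955-106248204 on the minus strand for the first of 2 starts listed for Alas1.
Hbb-bs: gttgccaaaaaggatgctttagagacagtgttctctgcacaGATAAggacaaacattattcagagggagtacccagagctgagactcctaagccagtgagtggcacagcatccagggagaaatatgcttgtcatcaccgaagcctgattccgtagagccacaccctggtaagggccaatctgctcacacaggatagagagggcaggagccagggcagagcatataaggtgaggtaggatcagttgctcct
Hba-a1: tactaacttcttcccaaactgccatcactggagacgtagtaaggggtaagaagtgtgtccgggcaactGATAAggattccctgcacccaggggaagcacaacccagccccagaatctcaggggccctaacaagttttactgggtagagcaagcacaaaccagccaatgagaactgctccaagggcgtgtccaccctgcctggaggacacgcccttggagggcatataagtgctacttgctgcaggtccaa
Alas2: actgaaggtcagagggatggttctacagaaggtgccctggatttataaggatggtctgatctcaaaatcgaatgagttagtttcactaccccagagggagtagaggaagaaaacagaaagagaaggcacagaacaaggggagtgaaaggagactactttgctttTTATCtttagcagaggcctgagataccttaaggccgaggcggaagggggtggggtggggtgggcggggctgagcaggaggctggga
Alas1: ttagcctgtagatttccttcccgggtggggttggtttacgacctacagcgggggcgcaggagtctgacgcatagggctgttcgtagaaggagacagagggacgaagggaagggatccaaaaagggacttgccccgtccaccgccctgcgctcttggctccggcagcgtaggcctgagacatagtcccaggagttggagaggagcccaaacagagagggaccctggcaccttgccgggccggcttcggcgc
Promoters of 7 of the 9 genes were matched by symbol, and Fech and Slc25a37 were not. The letters GATAA, searched on both strands, occurred 1 time in each of the 5 promoters of Hbb-bs, Hbb-bt, Hba-a1, Hba-a2 and Alas2, and in none of the 2 starts each of Alas1 and Tfrc. They occurred in 22.6% of all 32851 RefSeq promoters cut to the same length. The match began at position -209 in Hbb-bs, -182 in Hba-a1 and -86 in Alas2, counted from the transcription start. Other letters that were searched did not divide the genes in this way. CACCC occurred in every promoter searched, those of Alas1 and Tfrc included (52.0% of all promoters). CCAAT occurred in the globins and the first start of Tfrc, and in neither Alas1 nor Alas2 (33.8% of all promoters). The promoters of Hba-a1 and Hba-a2 were identical over 247 of 247 aligned bases, whereas those of Hbb-bs and Hbb-bt had the same base at 127 of 249 aligned positions. A match is a description of letters and not of a bound site.

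On the GRCm39 coordinates of the deposited tables, Hbb-bs lies at chr7:103475741-103477303 and Hbb-bt at chr7:103461731-103463203, both on the minus strand, and Hba-a1 at chr11:32233511-32234465 and Hba-a2 at chr11:32246489-32247298, both on the plus strand. Alas2 lies at chrX:149330371-149353634 (plus strand), Alas1 at chr9:106110654-106125853 (minus strand), Tfrc at chr16:32427738-32451612 (plus strand), Slc25a37 at chr14:69479297-69522561 (minus strand), and Fech on chromosome 18. The transcripts of the globin pairs are near copies of each other. Of the 50-base windows of the Hba-a2 transcript, 439 of 505 (86.9%) also occur in the Hba-a1 transcript, and of those of Hbb-bt, 381 of 654 (58.3%) occur in Hbb-bs. The split within each pair is uncertain, because no source used here says how a read that fits either copy was assigned. No window of Alas2 occurs in Alas1 (0 of 1988), and that pair is told apart.

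After 24 weeks, 5 of the 8 genes that could be tested were lower in dnOGAh-Tg than in Control left ventricle and none was higher. These were Hbb-bs, Hba-a1, Hbb-bt, Alas2 and Alas1, at 0.461 to 0.598 of the Control mean. Fech, Tfrc and Slc25a37 did not pass. Over all 14676 genes tested at 24 weeks, 22.5% passed, 11.1% as lower and 11.3% as higher, and the median log2 change of the 8 genes was -0.75, against -0.00 over all genes. Hba-a2 had too few reads for the test, which left out genes that reached a normalized count of 10 in fewer than 5 libraries of a time. The test was limma-trend on log2(normalized count + 1), and a gene passed at an adjusted p under 0.05 (Benjamini-Hochberg over every gene tested). In bulk RNA, fewer red cells or precursors in the tissue and less RNA per cell cannot be told apart.

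Hbb-bs, the beta globin with the most reads, had 9376, 11027, 6142, 7964 and 7679 normalized counts in the dnOGAh-Tg libraries at 24 weeks, against 15423, 13293, 9549, 17971 and 15935 in the Control libraries. The groups overlapped, since the highest dnOGAh-Tg library stood above the lowest Control library. The mean was 8438 ± 1848 in dnOGAh-Tg and 14434 ± 3198 in Control (SD, n = 5 each), and the log2 change was -0.77 (SE 0.18, limma adjusted p = 0.00820). The alpha globin gene Hba-a1 had 8021, 8747, 5513, 6662 and 7480 in dnOGAh-Tg, against 13306, 11064, 9269, 15156 and 14378 in Control. These groups did not overlap, as for 16.7% of all tested genes (8.19% with dnOGAh-Tg below Control), and the log2 change was -0.79 (SE 0.15, limma adjusted p = 0.00265).

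Hbb-bt, the second beta globin, had 1153, 1236, 711, 1048 and 944 normalized counts in dnOGAh-Tg at 24 weeks and 2054, 1626, 1274, 2158 and 1908 in Control. Its groups did not overlap either, and the log2 change was -0.82 (SE 0.17, adjusted p = 0.00363 by limma). The third replicate was the lowest library of its group for all 3 of these genes, in dnOGAh-Tg as in Control. Hba-a2 was near the floor of detection, with at most 5.3 normalized counts in a dnOGAh-Tg library and at most 10.1 in a Control library, so no fold is given.

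The proportions among the globins lay in overlapping ranges in the 2 groups, although the split of reads between Hbb-bs and Hbb-bt is uncertain. The ratio of Hba-a1 to Hbb-bs was 0.871 ± 0.0686 in dnOGAh-Tg and 0.882 ± 0.0561 in Control at 24 weeks, and that of Hbb-bt to Hbb-bs was 0.121 ± 0.00756 in dnOGAh-Tg and 0.126 ± 0.00697 in Control (SD, n = 5 each). The 4 globins together took 0.0464% to 0.0755% of a library's reads in dnOGAh-Tg, against 0.0703% to 0.121% in Control. Myoglobin (Mb), the oxygen-binding globin of muscle, had a log2 change of -0.21 (limma adjusted p = 0.484) and did not pass the test.

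Alas2, the red cell form of the first heme enzyme, changed most of the 8 genes at 24 weeks. It had 401, 468, 380, 492 and 414 normalized counts in dnOGAh-Tg, against 1239, 630, 738, 1156 and 912 in Control. The groups did not overlap, and the Control libraries spread far more widely than the dnOGAh-Tg libraries, with means of 431 ± 47.2 in dnOGAh-Tg and 935 ± 262 in Control (SD, n = 5 each). The log2 change was -1.08 (SE 0.17, limma adjusted p = 7.45e-04). Within libraries, Alas2 made up 21.6 to 31.4 counts per 1000 globin counts in dnOGAh-Tg and 24.2 to 40.2 in Control, and these ranges overlapped.

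Alas1, the form used by muscle and most other tissues, had 3940, 4015, 3448, 3884 and 4157 normalized counts in dnOGAh-Tg at 24 weeks, against 6270, 6702, 5091, 7830 and 6603 in Control. Every dnOGAh-Tg library lay below every Control library. The mean was 3889 ± 267 in dnOGAh-Tg and 6499 ± 982 in Control (SD, n = 5 each), and the log2 change was -0.73 (SE 0.11, limma adjusted p = 4.16e-04). All 5 lower genes were also lower in dnOGAh-Tg in each of the 5 pairs of libraries that share a title code. The log2 differences of the pairs ran from -1.01 to -0.56 for Alas1, from -1.63 to -0.43 for Alas2 and from -1.17 to -0.27 for Hbb-bs.

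**Figure D1:**
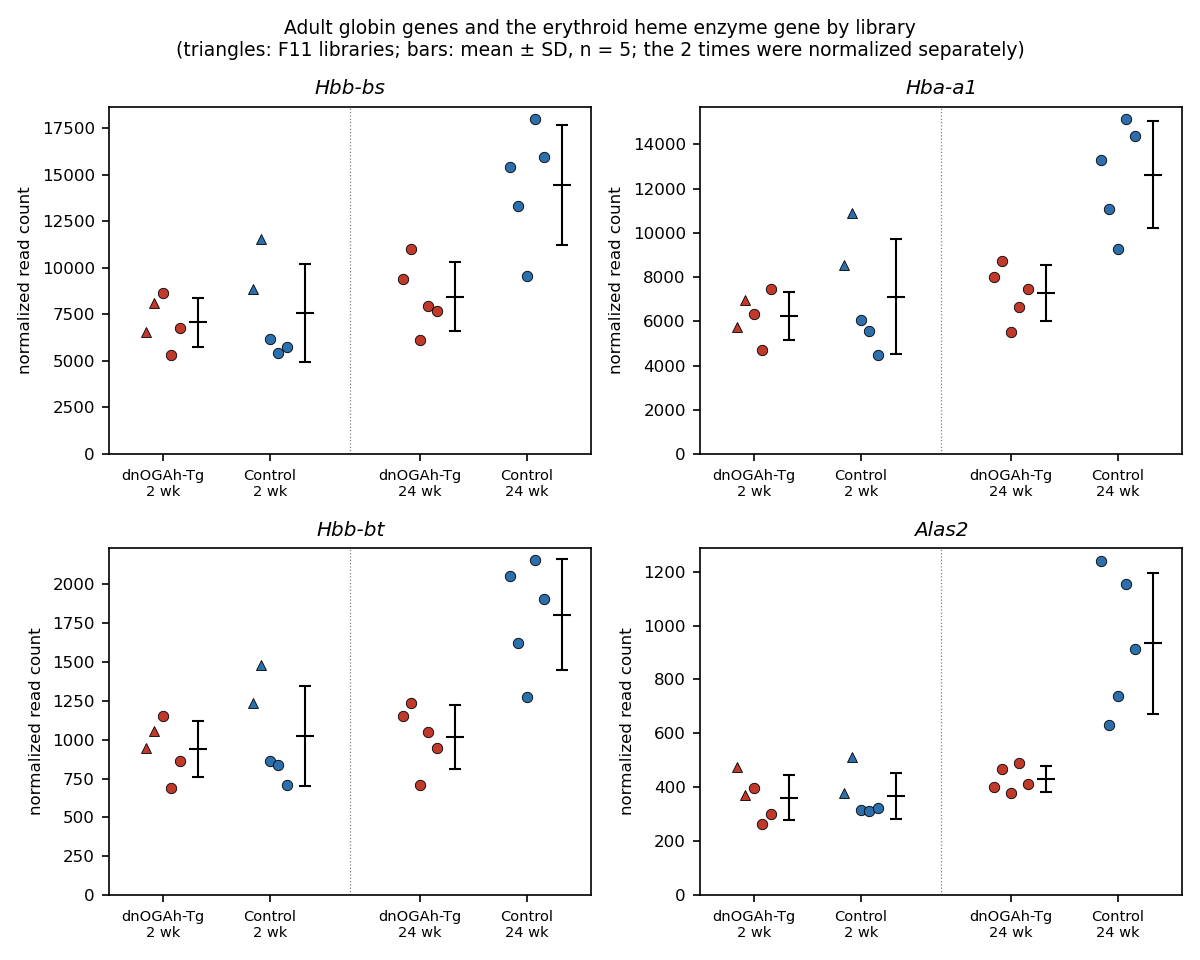
Normalized read counts (y axis, linear) of Hbb-bs, Hba-a1, Hbb-bt and Alas2 in each library of the dnOGAh-Tg (red) and Control (blue) groups at 2 and 24 weeks, with the mean and SD of 5 libraries beside the points and triangles for F11 libraries. At 24 weeks the red points of Hba-a1, Hbb-bt and Alas2 lie below all blue points, and at 2 weeks the groups overlap for all 4 genes, with the F11 Control libraries highest among Control.

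At the last step of the pathway no change passed. Fech had 3655, 3555, 4100, 3423 and 3552 normalized counts in dnOGAh-Tg at 24 weeks and 3458, 3969, 4559, 3271 and 3800 in Control. The dnOGAh-Tg values lay inside the Control range, and the log2 change, -0.05 with an SE of 0.10, did not pass (limma adjusted p = 0.738). A test of whether Fech changed less than Alas1 was not run.

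The iron import genes did not pass at 24 weeks. Tfrc, whose product takes up iron-loaded transferrin, had 2513, 1904, 3673, 4822 and 2304 normalized counts in dnOGAh-Tg and 3022, 2294, 2305, 2427 and 3108 in Control. Its spread was wider in dnOGAh-Tg, where 2 libraries stood above all Control libraries and 1 below them (log2 change 0.14, SE 0.22, limma adjusted p = 0.686). Slc25a37 had 383, 284, 393, 409 and 400 in dnOGAh-Tg and 466, 386, 511, 436 and 360 in Control, with overlapping groups (log2 change -0.21, SE 0.13, limma adjusted p = 0.279). Slc25a28, the mitoferrin of non-erythroid tissue, had a log2 change of -0.21 (limma adjusted p = 0.350).

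**Figure D2:**
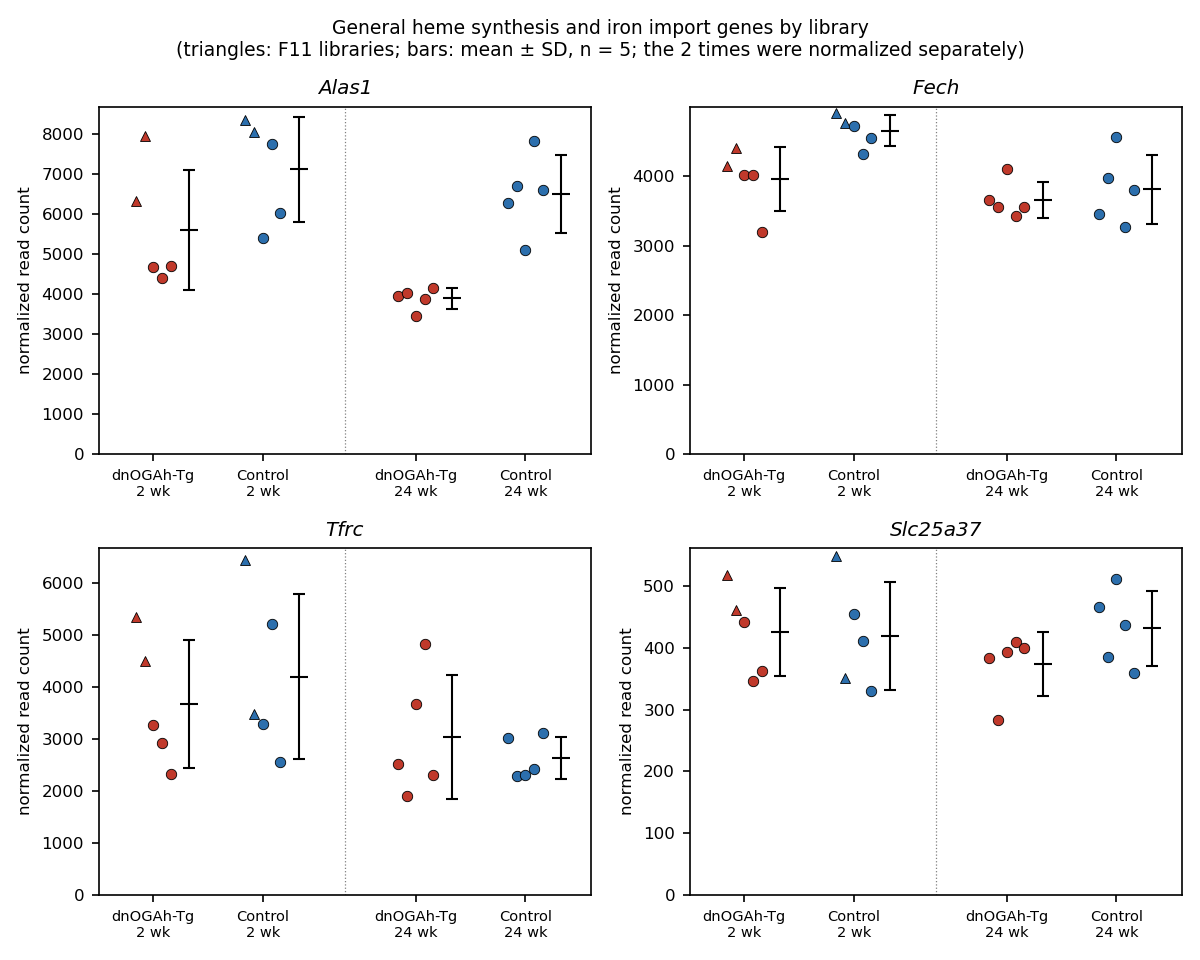
Normalized read counts (y axis, linear) of Alas1, Fech, Tfrc and Slc25a37 in each dnOGAh-Tg (red) and Control (blue) library at 2 and 24 weeks, with mean and SD of 5 libraries and triangles for F11 libraries. Alas1 separates at 24 weeks, from 3448 to 4157 in dnOGAh-Tg and from 5091 to 7830 in Control, while the other 3 genes overlap.

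Levels can be ordered per kilobase of exon (all annotated exons of a gene joined, GENCODE M21). In dnOGAh-Tg at 24 weeks the order of mean normalized counts per kilobase was Hbb-bs 10987, Hba-a1 8971, Hbb-bt 1449, Alas1 630, Tfrc 492, Fech 264, Alas2 179, Slc25a37 62.0 and Hba-a2 5.16. In Control it was Hbb-bs 18794, Hba-a1 15560, Hbb-bt 2566, Alas1 1053, Tfrc 425, Alas2 389, Fech 275 and Slc25a37 71.7, with Hba-a2 lowest again. On this scale Alas1 stood above Alas2 in both groups. The libraries' ranges overlapped between Hbb-bs and Hba-a1 in both groups, between Alas1 and Tfrc in dnOGAh-Tg, and between Tfrc and Alas2 and between Alas2 and Fech in Control. Fech has 13838 exon bases when all its annotated transcripts are joined, and its place in the order depends on that length. The place of Hba-a2 depends on how reads that also fit Hba-a1 were assigned, which is not known.

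After 2 weeks none of the 8 genes passed, of 14584 genes tested with 0% passing. At an unadjusted p under 0.05, 3551 of all genes and 1 of the 8, Fech, would pass, and for all genes DESeq2 called 865 and edgeR 0, with 0 of the 8 genes in either. Hbb-bs had 6555, 8100, 8618, 5304 and 6756 normalized counts in dnOGAh-Tg, against 8871, 11552, 6181, 5399 and 5722 in Control (log2 change -0.05, SE 0.21, limma adjusted p = 0.891). The 2 F11 libraries were the highest of the Control group. Hba-a1 ranged from 4685 to 7466 in dnOGAh-Tg and from 4471 to 10914 in Control, and Hbb-bt from 687 to 1152 in dnOGAh-Tg and from 711 to 1481 in Control. The F11 Control libraries were highest for both of these globins too, and within code F11 the log2 difference of Hbb-bs was -0.47 (2 dnOGAh-Tg and 2 Control libraries), against 0.06 within code F14 (2 and 3 libraries). Without the 2 F11 dnOGAh-Tg libraries the log2 changes of Hbb-bs, Hba-a1 and Hbb-bt were -0.09, -0.16 and -0.16, and without all F11 libraries they were 0.23, 0.18 and 0.14, and none passed.

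Alas2 had 476, 372, 396, 265 and 300 normalized counts in dnOGAh-Tg at 2 weeks and 379, 514, 314, 311 and 323 in Control. The groups overlapped, although 2 dnOGAh-Tg libraries lay below all Control libraries and 1 Control library above all dnOGAh-Tg libraries. The log2 change was -0.03 (SE 0.18, limma adjusted p = 0.932), and -0.20 without the F11 dnOGAh-Tg libraries (adjusted p = 0.447). Alas1 had 6315, 7939, 4669, 4402 and 4688 in dnOGAh-Tg and 8342, 8048, 5405, 7749 and 6024 in Control. The 3 dnOGAh-Tg libraries with high Oga lay below all 5 Control libraries and the 2 F11 dnOGAh-Tg libraries lay among them, and the log2 change over all libraries was -0.36 (SE 0.18, limma adjusted p = 0.229).

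Fech had 4151, 4411, 4013, 4012 and 3190 in dnOGAh-Tg at 2 weeks and 4910, 4762, 4724, 4321 and 4554 in Control. Only the higher F11 dnOGAh-Tg library reached into the Control range (log2 change -0.24, SE 0.10, limma adjusted p = 0.176). Without the 2 F11 dnOGAh-Tg libraries, Alas1 passed at a log2 change of -0.61 (limma adjusted p = 0.0105) and Fech at -0.32 (limma adjusted p = 0.0372), the only 2 of the 8 genes to do so. In that comparison 33.8% of all genes passed and 17.7% passed as lower, so 2 of 8 is near the background. Without all F11 libraries neither passed, with Alas1 at -0.46 (limma adjusted p = 0.0517) and Fech at -0.29 (adjusted p = 0.139), while 22.2% of all genes passed and 11.4% passed as lower. Those 2 libraries were set apart by their Oga level, which was known when the comparison was chosen, and Oga level and title code cannot be told apart there. Tfrc and Slc25a37 had log2 changes of -0.18 and 0.03 over all libraries at 2 weeks (limma adjusted p = 0.685 and 0.918). Without the F11 dnOGAh-Tg libraries they had -0.50 and -0.11 and did not pass (adjusted p = 0.149 and 0.638).

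The change at 24 weeks differed from that at 2 weeks for 1 of the 8 genes, Alas2, by -1.05 on the log2 scale (SE 0.26, limma adjusted p = 0.0452), where 1.76% of 14339 genes passed and 0.683% passed with a more negative change at 24 weeks. Leaving out 1 library ended that call in 13 of 20 cases, at adjusted p values of 0.0595 to 0.100, and it remained without dnOGAh-Tg replicate 4 or 5 or Control replicate 2 or 5 of 2 weeks, or without dnOGAh-Tg replicate 2 or Control replicate 2 or 3 of 24 weeks. The difference was -0.72 for Hbb-bs, -0.73 for Hbb-bt and -0.65 for Hba-a1 (limma adjusted p = 0.233, 0.196 and 0.266), so no difference between times was established for the globins. It was -0.37 for Alas1 (adjusted p = 0.446) and 0.19 for Fech (adjusted p = 0.549) by the same limma fit.

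Shares of reads and ratios within a library can be set beside each other across the tables. The globins' share was 0.0395% to 0.0558% in dnOGAh-Tg and 0.0351% to 0.0834% in Control at 2 weeks, and 4 of the 5 Control libraries of 24 weeks stood above that range, 3 at 0.105% to 0.121% and 1 only just, at 0.0834%. The ratio of Alas1 to Alas2 counts had a median of 15.6 in dnOGAh-Tg and 18.6 in Control at 2 weeks, and of 9.08 in dnOGAh-Tg and 6.90 in Control at 24 weeks. Every library of 24 weeks had a lower ratio than every library of 2 weeks. The 2 times differ in title codes as well as in time, and these cannot be told apart.

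The other enzymes of heme synthesis are given as a whole list. At 24 weeks 4 of the 9 enzyme genes were lower in dnOGAh-Tg and 0 higher, with a median log2 change of -0.22. Over all tested genes 11.1% passed as lower and 11.3% as higher. The 2 lower enzyme genes besides Alas1 and Alas2, which are counted above, were Alad and Uros. Alad, which joins a pair of aminolevulinate molecules in the second step, averaged 2068 ± 287 normalized counts in dnOGAh-Tg and 3104 ± 426 in Control (SD, n = 5 each), and its log2 change was -0.58 with an SE of 0.12 (limma adjusted p = 0.00316). Uros, which closes the porphyrin ring, averaged 500.0 ± 95.5 in dnOGAh-Tg and 883 ± 104 in Control, with no overlap of the groups, and its log2 change was -0.83 (SE 0.14, adjusted p = 8.84e-04 by limma). Urod, Cpox and Ppox, which act between Uros and Fech, had log2 changes of -0.20, 0.33 and -0.01 and limma adjusted p values of 0.179, 0.190 and 0.963.

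At 2 weeks 0 of the 9 enzymes passed. Alad had a log2 change of -0.30 (limma adjusted p = 0.132), and its groups did not overlap, as for 3.15% of all genes (1.96% with dnOGAh-Tg below Control), with 2524 to 3200 normalized counts in dnOGAh-Tg and 3256 to 3916 in Control. Uros had 750 and 846 in the 2 F11 dnOGAh-Tg libraries and 368 to 443 in the other 3, against 731 to 904 in Control. As for Alas1, the dnOGAh-Tg libraries with high Oga were the low ones. They are also the dnOGAh-Tg libraries outside code F11, and Oga level and title code cannot be told apart there. Without the 2 F11 dnOGAh-Tg libraries, 17.7% of all genes passed as lower.

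**Figure D3:**
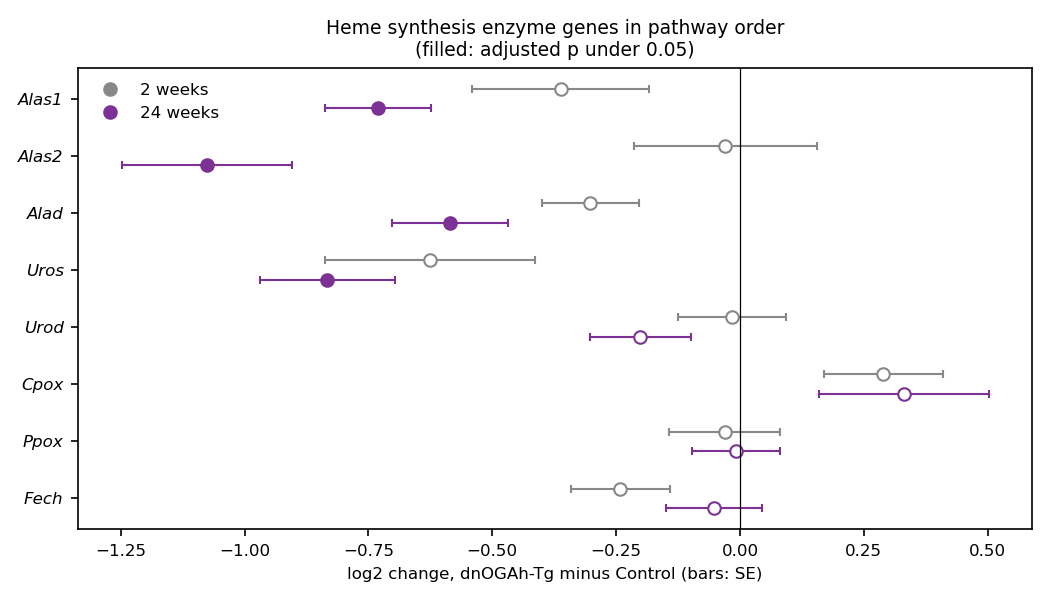
Log2 change (x axis, dnOGAh-Tg minus Control, limma, bars for SE) of 8 heme synthesis enzyme genes in pathway order at 2 weeks (grey) and 24 weeks (purple), with filled points where the adjusted p was under 0.05. At 24 weeks Alas1, Alas2, Alad and Uros are filled and lie at -0.58 or lower, Cpox lies at 0.33 and Fech at -0.05, and no point is filled at 2 weeks.

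The neighbouring lists at 24 weeks had shares of called genes near or below the 22.5% of all genes. Mitochondrial iron and iron-sulfur assembly had 3 of 18 tested genes lower and 0 higher (median log2 change -0.12). They were Clpx, a mitochondrial chaperone that activates aminolevulinate synthase in yeast and zebrafish (-0.73, limma adjusted p = 5.99e-05), Abcb8 (-0.83, 3.57e-05), a transporter of the inner mitochondrial membrane, and Abcb10 (-0.44, 0.00157), a transporter of the same membrane needed for heme synthesis in red cells. Iron uptake, storage and export had 4 of 19 lower and 0 higher. Among them Aco1, an iron regulatory protein, had a log2 change of -0.46 (limma adjusted p = 0.00285) and Fth1, the ferritin heavy chain, -0.40 (0.0393), whereas the ferritin light chain Ftl1 had 0.03 (0.913). Heme breakdown and transport had 2 of 16 higher, the heme transporter gene Slc48a1 (0.33, limma adjusted p = 0.0247) and the receptor gene Lrp1 (0.46, 0.0351), and 1 lower, Flvcr2, a transporter of the FLVCR family (-1.37, 0.00134). Hmox1, the inducible heme oxygenase, averaged 390 ± 82.2 in dnOGAh-Tg and 287 ± 36.6 in Control and did not pass (limma adjusted p = 0.0550).

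Markers of red cells and erythroblasts were compared beside the globins. Of 23 such genes, 17 had a row at 24 weeks and 10 could be tested, of which 3 were lower, 2 higher and the rest did not pass. Over all tested genes 11.1% passed as lower and 11.3% as higher. Among the lower markers was Rhd, the Rh antigen gene, with 264 ± 95.3 in dnOGAh-Tg and 555 ± 122 in Control (SD, n = 5 each; log2 change -1.12, limma adjusted p = 0.00541). The higher ones, Tmcc2 (0.53, 7.86e-04) and Bpgm (0.28, 0.0253), had at least 772 normalized counts in all 10 libraries. The list's summed level was 21921 to 26190 in dnOGAh-Tg and 23814 to 27640 in Control, mostly from Ank1 and Sptb, which did not pass.

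Defining genes of red cells were close to 0. Slc4a1, the band 3 anion exchanger, had 2.82 to 13.3 normalized counts in dnOGAh-Tg and 9.16 to 46.9 in Control at 24 weeks. Epb42, Ermap and Klf1, the erythroid Krüppel-like factor, were under 10 in all 10 libraries, with 0 in some libraries of dnOGAh-Tg for each. At 2 weeks none of the 10 tested markers passed, with Rhd at a log2 change of -0.23 (limma adjusted p = 0.370). Among markers of other cells at 24 weeks, 5 of 10 cardiomyocyte genes were lower and 1 higher (median log2 change -0.52), and 6 of 10 endothelial genes were lower. Of fibroblast genes 4 of 8 and of macrophage genes 1 of 10 were higher, and 0 of 3 tested platelet, 0 of 3 neutrophil and 0 of 3 lymphocyte genes passed. The shares over all tested genes were 11.1% lower and 11.3% higher. Transcripts of the mitochondrial genome took 11.9% to 13.5% of reads in dnOGAh-Tg and 14.9% to 17.1% in Control at 24 weeks. The part of these shifts in the values of the globins, Alas2, Alas1 and the other heme enzymes was not tested.

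From library to library within a group, Hba-a1 and Hbb-bt varied with Hbb-bs. Of the 50-base windows of Hbb-bt, 58.3% also occur in Hbb-bs, and how reads that fit both were assigned is not known. The counts of Hbb-bt and Hbb-bs may therefore not be independent. Values were centred on the group mean, and Hbb-bs was compared with the other 7 genes in the 10 libraries of each time, giving 14 pairs with p adjusted over them (exact permutation within groups, two-sided). The permutation took the libraries of a group as exchangeable and did not allow for shared title codes. At 24 weeks Pearson r with Hbb-bs was 0.97 for Hbb-bt (Spearman rho 0.94, exact permutation adjusted p = 0.00146 and 0.00243) and 0.96 for Hba-a1 (rho 0.94, the same adjusted p values), and without the 2 libraries farthest in Hbb-bs r was 0.92 and 0.89. At 2 weeks r was 0.97 for Hbb-bt (rho 0.93, exact permutation adjusted p = 0.00324 and 0.0107) and 0.89 for Hba-a1 (rho 0.87, 0.0143 and 0.0306), and 0.93 and 0.87 without the 2 farthest libraries.

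Alas2 followed Hbb-bs at 2 weeks, with r = 0.77 and rho = 0.72 (exact permutation adjusted p = 0.0220 and 0.0432). At r = 0.57 without the 2 farthest libraries, the relation rested in part on them. An r of this size was not confined to the listed genes, since Ncln had 0.86 and Snai1 0.72 with Hbb-bs at 2 weeks. At 24 weeks Alas2 had r = 0.59 and rho = 0.60 (exact permutation adjusted p = 0.140 and 0.146). Alas1 had r = 0.80 at 24 weeks (exact permutation adjusted p = 0.0239) but rho = 0.50 (0.224). Without the third replicate of each group, both of code F23, r was 0.34, so the relation rested on those libraries. Fech ran the other way, with r = -0.81 (exact permutation adjusted p = 0.0220) and rho = -0.58 (0.177) at 24 weeks, and r = -0.39 without those libraries. In all, 7 of the 14 pairs passed with all libraries by Pearson r, and 3 without the 2 farthest. These 3 were Hbb-bt at both times and Hba-a1 at 24 weeks (exact permutation adjusted p = 0.0486 each), and Hba-a1 at 2 weeks did not pass without them (0.0729).

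**Figure D4:**
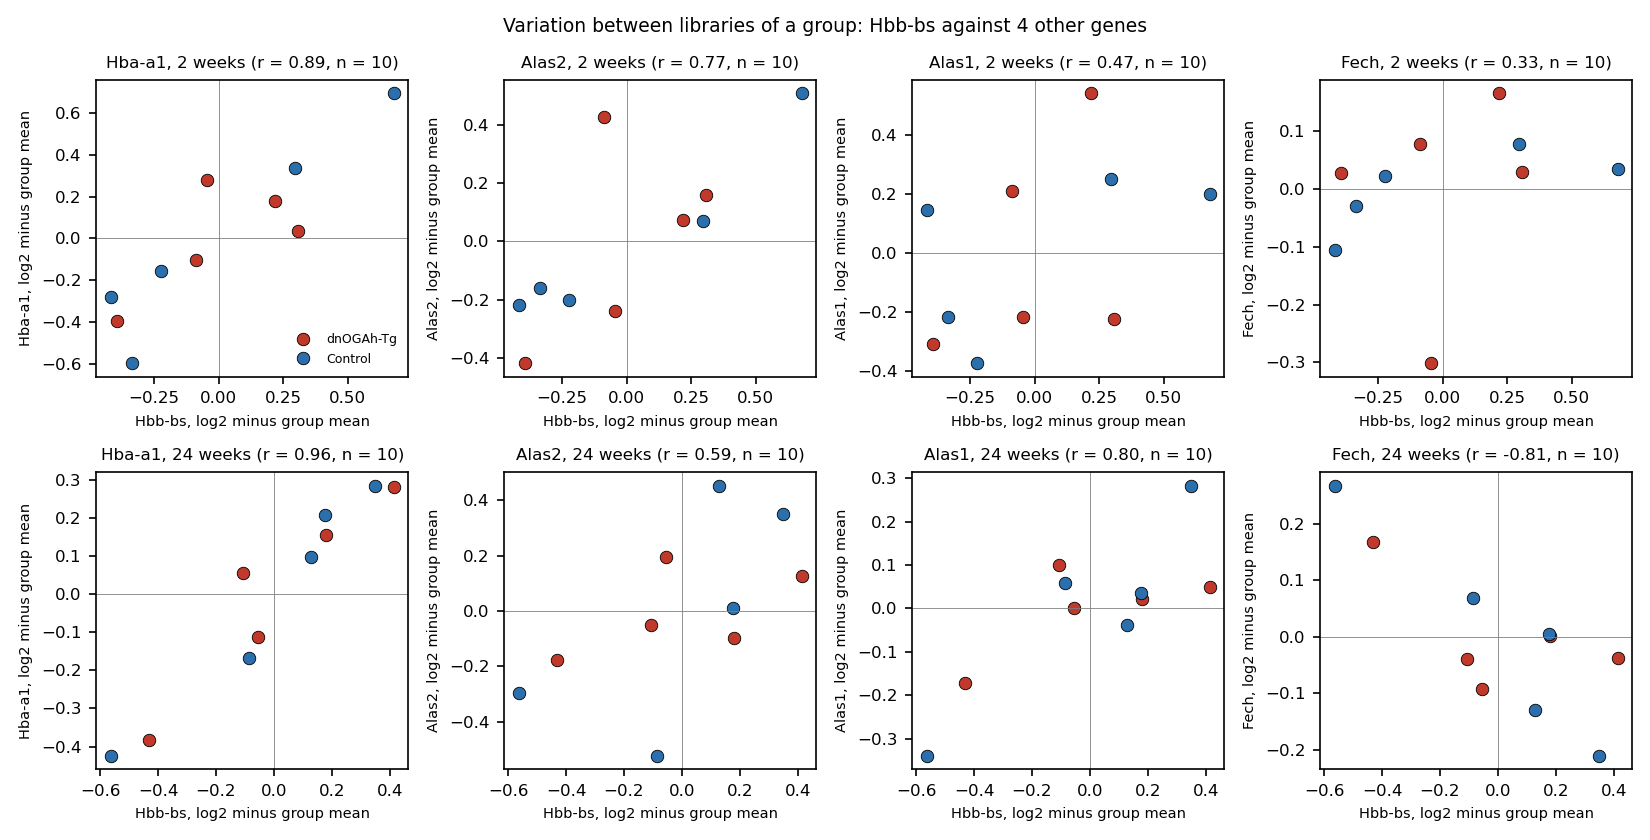
Log2 values minus the group mean in each dnOGAh-Tg (red) and Control (blue) library, with Hbb-bs on the x axes and Hba-a1, Alas2, Alas1 and Fech on the y axes, at 2 weeks (upper row) and 24 weeks (lower row), n = 10 libraries a panel. Hba-a1 lies along a line at both times (r = 0.89 and 0.96), whereas in Alas1 and Fech at 24 weeks the slope rests on 2 libraries at the left.

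With Hbb-bs as a covariate in the 24-week fit, Alas1 remained lower in dnOGAh-Tg at a log2 change of -0.41 (limma adjusted p = 0.0408) and Alas2 did not pass at -0.65 (adjusted p = 0.0701). Fech had -0.33 and Slc25a37 -0.51 in that fit (limma adjusted p = 0.0644 and 0.0631). Alas1 was 1 of 5 genes other than globins, so the share that passed was near the 20.9% of all genes (11.7% as lower). Alas2 and Slc25a37 had larger decreases than Alas1 in that fit without passing. With Alas2 as the covariate, Alas1 had -0.48 (limma adjusted p = 0.361) and Hbb-bs -0.09 (0.956), and 1.89% of all genes passed (0.661% as lower). Since the groups do not overlap in Alas2, that covariate stands close to the group itself. Hbb-bs was also lower in dnOGAh-Tg at 24 weeks, so as a covariate it carries part of the group difference too. Neither fit can therefore tell a change of Alas1 apart from one that goes with the red cell genes.

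The genes whose variation between libraries was most like that of Hbb-bs, by the mean Pearson r of centred values over both times among the 14339 genes tested at both times, the list itself and predicted genes left out, included Ncln (0.84), Snai1 (0.79), Tmem214 (0.77), Snx21 (0.77) and Slc25a39 (0.76). None reached the globins themselves (0.97 for Hbb-bt and 0.93 for Hba-a1). Alas2 had a mean r of 0.68 with Hbb-bs, below each of the genes just named, and Alas1 had 0.63. The genes most like Alas1 were Mn1 (0.86), Qrsl1 (0.85), Fhl2 (0.84), Agpat1 (0.83), Rab7 (0.83) and Lrg1 (0.82). These are descriptions over 10 libraries a time, given without a test.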

How the data were processed

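Per the submitters' processing notes, the tools were STAR 2.7.3a (build GRCm39), cutadapt 2.6, Trim Galore 0.6.6, DESeq2 and R 4.0.3. The counter, annotation and strand were not given in the sources used here. The authors deposited 1 table per time, whose values are a normalized signal: read counts divided by 1 size factor per library. Values were whole multiples of 1 step per library within 0.01 of a read, so reads were recovered for the count tests. The tables were normalized separately, so levels were tested within each (limma 3.58.1, R 4.3.3, two-sided) and the difference between times as a contrast in 1 fit of 20 libraries. Alternatives were pseudocounts of 0.5 and 5, no filter or a filter of 50, quantile and TMM scaling, edgeR 4.0.16 and DESeq2 1.42.0, replicate or title code as a block, all libraries in 1 fit, Hbb-bs or Alas2 as a covariate, and leaving libraries out. On simulated data the test recovered 93% of genes changed by 1 on the log2 scale at 24 weeks, 87% at 2 weeks and 50% for the difference. The simulated counts had 1 spread for all genes and no split of the dnOGAh-Tg libraries by Oga level. These shares therefore do not measure recovery in the real libraries, least of all at 2 weeks. Exon lengths came from GENCODE M21 by gene ID. The genes, lists, naming rule and alternatives were chosen with earlier results of these data known. The naming rule took all members and heme enzymes, a few stated iron genes, the 4 smallest p-values of each other list, and the 6 genes most like Hbb-bs and Alas1. Some genes that the rule names are not reported here.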

Additional observations from a re-analysis of the deposited data

Results flagged for a closer look

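The change of Alas2 at 24 weeks differed from that at 2 weeks by -1.05 on the log2 scale (limma adjusted p = 0.0452), a call that ended in 13 of 20 cases when 1 library was left out. In Alas2, dnOGAh-Tg lay below Control in 5 of 5 code pairs at 24 weeks. It also lay below Control in the 2 codes that hold both groups at 2 weeks, by -0.17 and -0.07. In Slc25a37 the second dnOGAh-Tg library of 24 weeks, at 284 normalized counts, stood far below the other 4 at 383 to 409. Of 36 groups of 5 libraries checked, 1 held such a library, and chance flags about 1 in 20.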

How the results depend on the processing

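At 24 weeks the 5 lower genes kept their calls under every pseudocount, filter, scaling, tool, block and left-out library tried, with the 2 covariates as the exceptions. With Hbb-bs as a covariate 1 of 5 genes passed, against 20.9% of all genes, and Tfrc turned to -0.11. With Alas2 as a covariate 0 of 7 genes and 277 of all genes passed. At 2 weeks the count of all genes called was 865 by DESeq2, 241 with a replicate block, 1157 with all libraries in 1 fit, 4929 without the F11 dnOGAh-Tg libraries (2 of the 8 genes) and 3241 without all F11 libraries, and 0 to 3366 when 1 library was left out (3366 without dnOGAh-Tg replicate 1 and 447 without Control replicate 5). Log2 changes near 0 at 2 weeks turned sign: Slc25a37 to -0.017 with a title code block, -0.11 without the F11 dnOGAh-Tg libraries and -0.051 without all F11 libraries, Alas2 to 0.0031 with Hbb-bs as a covariate, and Hbb-bs, Hba-a1 and Hbb-bt to 0.23, 0.18 and 0.14 without all F11 libraries. Leaving out 1 library gave -0.050 to 0.13 for Slc25a37, -0.14 to 0.10 for Alas2, -0.16 to 0.12 for Hbb-bs, -0.28 to 0.038 for Hba-a1 and -0.21 to 0.055 for Hbb-bt at 2 weeks, and -0.048 to 0.29 for Tfrc and -0.11 to 0.014 for Fech at 24 weeks.

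For the difference between times, 0 of the genes passed with quantile scaling, with either covariate, without the F11 dnOGAh-Tg libraries or without all F11 libraries, and 0 to 1 when 1 library was left out. Alas2 then had -1.03, -0.65 (Hbb-bs as a covariate), -0.88 and -1.07. Genes called over all were 533 by DESeq2, 422 with a replicate block, 6 and 0 with Hbb-bs and Alas2 as covariates, 34 without all F11 libraries and 100 to 683 when 1 library was left out. Fech turned to -0.10 and -0.23 with the Hbb-bs and Alas2 covariates. Of the 14 pairs with Hbb-bs, 3 passed without the 2 farthest libraries, against 7 with all.

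Same-numbered libraries deviated together in some pairs but not in all (correlations of -0.15 to 0.52 at 24 weeks and -0.21 to 0.38 at 2 weeks), so the numbers were not taken to pair the samples. The same number was the best partner for replicates 2 and 3 at 24 weeks and replicate 1 at 2 weeks, not for the rest. The replicate block, which at 24 weeks is also the title code block, gave 3921 genes there. The causes of these shifts were not tested. Few reads limit Slc4a1 and Hba-a2, which had 31 reads over the 10 libraries of 2 weeks. Hba-a1 had 66663 reads there, and how reads that fit both copies were assigned is not known.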
